A study of Caenorhabditis elegans with 2 samples.

Results

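MicroRNA genes were examined as regions around which the forkhead transcription factor UNC-130 may lie in the Caenorhabditis elegans genome. All genes annotated as microRNA precursors on the 6 nuclear chromosomes were taken, 261 of 46890 annotated genes, and each was extended 2000 bp upstream on its own strand. A gene was said to hold a peak where the summit of that peak fell in its region. The rule for the regions used annotation and no measured value. It was set, as were the gene lists below, with earlier results of these data known.

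The peaks came from chromatin immunoprecipitation and sequencing (ChIP-seq) of whole L1 larvae, the first larval stage, of mixed sex. The strain was OP77, which carries the unc-119(ed3) III mutation and the transgene wgIs77. That transgene makes UNC-130 joined to the fluorescent tag eGFP, so the protein followed was a tagged copy and not the endogenous one alone. Per the labels there was 1 group with 2 biological replicates, DNA fragments were 150 to 350 bp long, the experiment was directed against the eGFP fusion, and the antibody field names unc-130. No other genotype or control library was analysed here, so nothing below is a contrast between conditions, and whole animals do not tell in which cells a peak arose.

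MicroRNAs are short RNAs that silence messenger RNAs. RNA polymerase II copies a microRNA gene, or the protein-coding host gene around it, into a primary transcript. The nuclear enzyme Drosha and its partner Pasha cut a hairpin from the transcript, Dicer cuts the hairpin to the mature RNA, and an Argonaute protein carries that RNA to targets that pair with its seed, the bases near its 5′ end. Genes that share a seed form a family, and C. elegans families act in larval timing, embryonic development, stress resistance and cell identity. UNC-130 belongs to the FoxD class of forkhead proteins and is known for roles in cell and axon migration and in the choice of sensory neuron and glial fates.

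The families and gene clusters in which several genes held a peak are shown first by their mature sequences, because the results below return to them. Sequences were read 5′ to 3′ from the WBcel235 genome at the annotated positions, and the capitals mark the seed, bases 2 to 8. All 6 genes of the mir-51 family share the seed ACCCGUA:
mir-51: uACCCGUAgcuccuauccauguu
mir-52: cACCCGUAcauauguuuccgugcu
mir-53: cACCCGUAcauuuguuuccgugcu
mir-54: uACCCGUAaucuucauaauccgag
mir-55: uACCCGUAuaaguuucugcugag
mir-56: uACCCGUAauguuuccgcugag

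The 4 genes of a cluster in the gene gcn-1 share the seed AUGACAC, and 3 of their mature RNAs are shown:
mir-229: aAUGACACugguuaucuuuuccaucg
mir-64: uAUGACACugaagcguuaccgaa
mir-66: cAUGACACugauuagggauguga

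The pair mir-73 and mir-74 shares the seed GGCAAGA:
mir-73: uGGCAAGAuguaggcaguucagu
mir-74: uGGCAAGAaauggcagucuaca

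The other mature RNAs to which the results return are let-7, which times the passage from larva to adult, mir-34, which is known for stress responses, and mir-80 and mir-58.1 of the bantam family, named after a Drosophila relative. The seeds of mir-80 and mir-58.1 differ in their last base:
let-7: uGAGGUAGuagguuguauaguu
mir-34: aGGCAGUGugguuagcugguug
mir-80: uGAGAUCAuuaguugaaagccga
mir-58.1: uGAGAUCGuucaguacggcaau

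Of the 261 microRNA genes, 38 held a summit of the optimal list, the 2631 peaks that the authors kept after comparing pooled and single-replicate peaks. This is 14.6% (95% Wilson interval 10.8 to 19.4%), beside 13.5% of protein-coding genes, whose windows ran from 2000 bp upstream to 100 bp downstream of the 5′ end. The interval for the microRNA genes contains the protein-coding share, so as a class they held such peaks about as often as protein-coding starts did. Intervals treat genes or peaks as the units counted and cover counting error only. They leave out differences between replicates and the sharing of summits by neighbouring genes. The files give no read depth. No gene held more than 1 optimal summit. The share was 24.2% of 612 tRNA genes and 35.0% of 346 snoRNA genes, both above the interval of the microRNA genes, with regions drawn in the same way.

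The longer candidate lists, which hold peaks before that selection, gave the same picture. In the pooled list of 30000 peaks, 141 microRNA genes had a summit (54.0%, 48.0 to 60.0%), beside 52.8% of protein-coding windows. That list and the one of replicate 1 both hold exactly 30000 peaks, which may be a set limit, so a region without a listed summit may still hold a lower peak. In the list of replicate 1 there were 150 (57.5%, 51.4 to 63.3%), beside 52.6%. In that of replicate 2 there were 132 (50.6%, 44.5 to 56.6%), beside 48.1%. About every other microRNA gene thus held a candidate peak in each list, and so did protein-coding windows.

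A summit in the lists of both replicates was found for 98 microRNA genes (37.5%, 31.9 to 43.6%), beside 34.3% of protein-coding windows. Another 52 genes had one in replicate 1 alone, 34 in replicate 2 alone, and 71 in no list at all. Of the 38 genes with an optimal summit, 37 had a summit in both replicate lists, and the exception, mir-4932, had one in replicate 1. Optimal peaks were chosen with the help of both replicate lists, and 2566 of all 2631 were found in both. When only the 2631 highest peaks of 1 replicate were used, 30 genes held a summit in replicate 1 and 35 in replicate 2, of which 27 and 28 were among the 38. Optimal peaks that were among the 2631 highest in both replicates marked 20 genes.

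Neighbouring genes often shared a summit, so the 38 genes stood for 31 distinct peaks. Clusters accounted for this: 4 summits covered 11 genes, namely mir-54, mir-55 and mir-56, then mir-229, mir-64, mir-65 and mir-66, then mir-73 and mir-74, and last mir-53 and mir-51. Members of such a cluster are not independent observations. The 31 summits ranked between 11 and 2584 by pooled signal among the optimal peaks, with a median of 1241, where the median of all optimal peaks is 1316. None lay within 100 bp of a tRNA, snRNA, snoRNA or rRNA gene, beside 184 of the 2631 optimal summits. A count of 0 in 31 allows a share of up to 9.68%, and a difference was not tested.

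**Figure D1:**
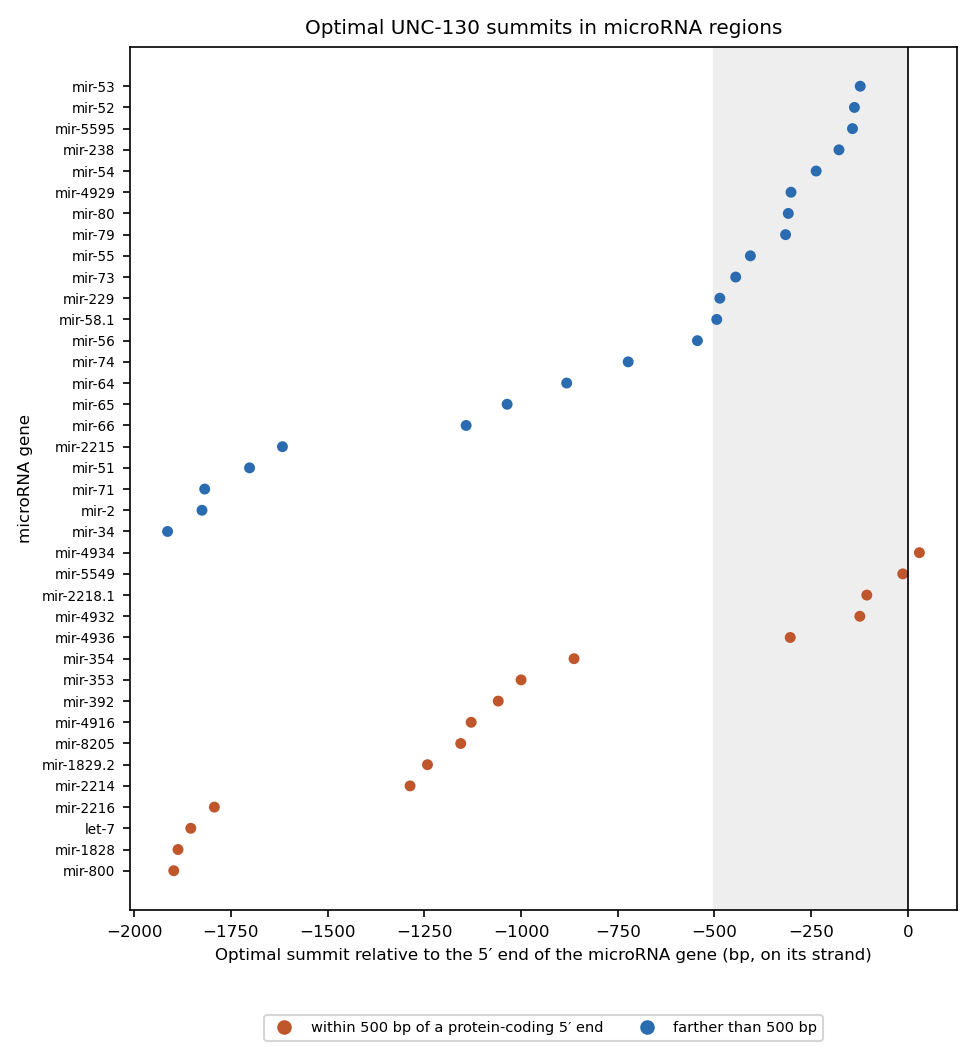
Each point is 1 of the 38 microRNA genes (vertical axis), placed by the position of its optimal summit in bp from the 5′ end of the gene (horizontal axis, negative is upstream), in orange where that summit lies within 500 bp of a protein-coding 5′ end and in blue where it is farther; the grey band spans 500 bp. Taking the nearest gene of each shared summit, 11 of the 15 blue summits lie in the band, and 4 of the 16 orange ones lie there upstream of the gene.

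The 31 summits fell into kinds by what else lay beside them. Of these, 16 lay within 500 bp of a protein-coding 5′ end, at 53 to 303 bp and a median of 167.5 bp, and each belonged to 1 microRNA gene. Those summits were a median of 1094 bp upstream of their microRNA, with 4 at 1 to 500 bp. The other 15 lay 1524 to 20021 bp from the nearest protein-coding 5′ end, with a median of 8144 bp, and covered 22 genes. Their median distance to the nearest microRNA gene was 316 bp, and 11 of the 15 were at 1 to 500 bp. The share near protein-coding starts, 51.6%, was close to the 52.2% of all optimal peaks. The 15 others were in introns (7), between genes (6) or in other non-coding RNA genes (2). Each protein-coding 5′ end was that of the whole annotated gene. Starts of shorter transcripts inside a gene were not looked at, so summits in introns may lie nearer to such a start.

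Counted by distance, 16 genes had an optimal summit 1 to 500 bp upstream (6.13%, beside 8.32% of protein-coding genes), 5 at 501 to 1000 bp (1.92%, beside 2.02%), 7 at 1001 to 1500 bp (2.68%, beside 1.87%) and 9 at 1501 to 2000 bp (3.45%, beside 1.69%). The interval of the last bin, 1.82 to 6.42%, lay above the protein-coding share, but with distances taken from the hairpin, an alternative chosen after seeing the data, let-7 left that bin and the interval for the other 8 genes, 1.56 to 5.93%, contained it. In the other bins the interval contained the protein-coding share. On the other side, the 2000 bp downstream of the microRNA gene held an optimal summit for 11 genes (4.21%, 2.37 to 7.39%), beside 37 genes (14.2%, 10.5 to 18.9%) for the 2000 bp upstream. Both sides were counted in the same genes: 34 had a summit upstream only, 8 downstream only and 3 on both sides. The upstream genes include clusters that share a summit. A difference between the sides was not tested, and no downstream share was worked out for protein-coding genes. In the pooled list the sides were close, at 52.1% upstream and 51.7% downstream.

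**Figure D2:**
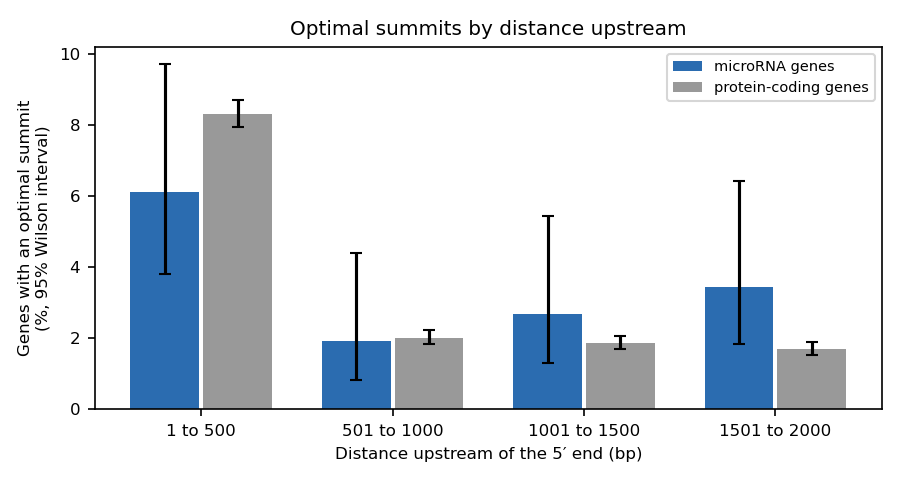
Percent of genes (vertical axis) with an optimal summit in successive 500 bp bins upstream of the 5′ end (horizontal axis, bp), for 261 microRNA genes and 19973 protein-coding genes; bars show 95% Wilson intervals. In the bin next to the gene the microRNA share is 6.13% and the protein-coding share 8.32%, and in the farthest bin they are 3.45% and 1.69%.

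The place of the microRNA gene and its chromosome went with different shares. Among 74 microRNA genes inside a protein-coding gene on the same strand, 16 held an optimal summit (21.6%, 13.8 to 32.3%). Among 32 inside one on the opposite strand only, there were 5 (15.6%, 6.86 to 31.8%), and among 155 outside protein-coding genes, 17 (11.0%, 6.96 to 16.9%). These intervals overlap, and a difference between places was not tested. Of the 16 genes, 4 share a summit in gcn-1, and of the 5, 3 share a summit in F09A5.3, so these are not independent. By chromosome, the share was highest on III, with 9 of 27 genes (33.3%, 18.6 to 52.2%), and on I, with 10 of 33 (30.3%, 17.4 to 47.3%). Protein-coding windows were also highest on those chromosomes, at 19.7% and 19.6%. The 9 microRNA genes on III include the 4 that share the summit in gcn-1. Differences between chromosomes were not tested. On V none of 28 genes held one, and a count of 0 allows a share of up to 10.7%, beside 9.01% of protein-coding windows there. The shares on II, IV and X were 8.16%, 10% and 13.5%, beside 13.1%, 12.2% and 11.0%.

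**Figure D3:**
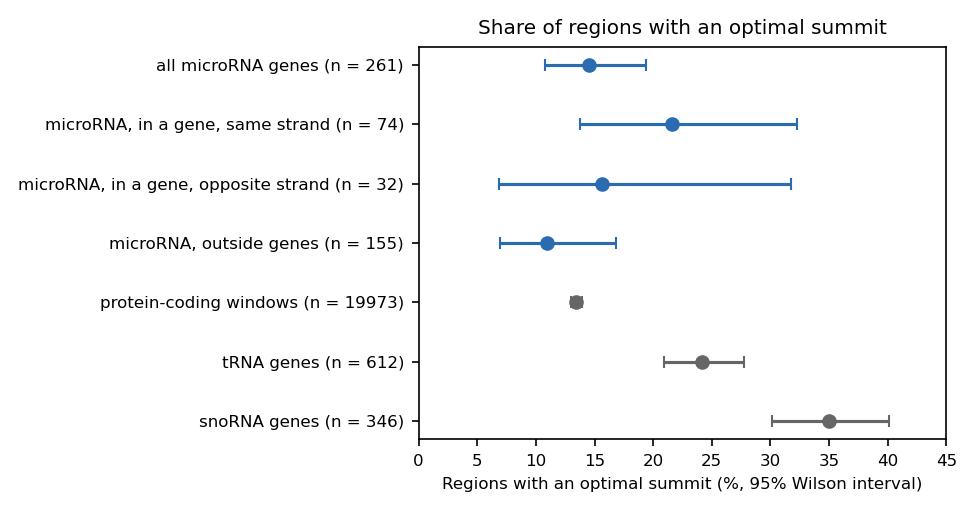
Percent of genes (horizontal axis) with an optimal summit, for microRNA genes as a whole and by place, beside protein-coding windows, tRNA genes and snoRNA genes; bars show 95% Wilson intervals. The microRNA genes stand at 14.6% and the protein-coding windows at 13.5%, below the tRNA genes (24.2%) and snoRNA genes (35.0%).

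The mir-51 family, which is jointly needed for embryonic development and is widely expressed, held an optimal summit at all 6 of its genes, through 3 distinct peaks. Over all microRNA genes the share was 14.6%, and genes that share a peak are not independent. The peak of mir-52 had its summit at IV:14033870, 138 bp upstream of the gene and 9910 bp from the nearest protein-coding 5′ end. Its deposited signal was 32.7 in the pooled list (rank 1606), 7.15 in replicate 1 and 27.7 in replicate 2. The replicates differed widely here: among the 2566 optimal peaks found in both, it stood at percentile 1.64 in replicate 1 and 85.3 in replicate 2 (100 is the highest). Signals are the values of the authors' peak caller, and are set against other peaks only within a list.

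The genes mir-53 and mir-51, on the minus strand of chromosome IV, shared a summit at IV:11027814, 123 bp upstream of mir-53 and 1702 bp upstream of mir-51. Its signal was 25.8 pooled (rank 2333), 11.5 in replicate 1 and 17.1 in replicate 2. On X, the cluster of mir-54, mir-55 and mir-56 shared a summit at X:13145331, 237, 407 and 544 bp upstream, in an intron of F09A5.3 on the opposite strand. That peak had a signal of 31.2 pooled (rank 1738), 18.1 in replicate 1 and 22.6 in replicate 2. All 3 peaks of the family ranked in the lower part of the optimal list, so none of the 6 genes held a peak of its upper 50%. With the 2631 highest peaks of replicate 1 alone, 3 of the 6 genes held a summit (mir-54, mir-55 and mir-56), and with those of replicate 2 alone, all 6 did.

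The 101 bp around the summits of the mir-51 family are shown for comparison with each other, on the strand of the microRNA gene, with the palindrome CACGTG in capitals where it occurs. Coordinates are WBcel235: IV:14033820-14033920 on the plus strand for mir-52, IV:11027764-11027864 on the minus strand for mir-53, and X:13145281-13145381 on the minus strand for mir-54:
mir-52: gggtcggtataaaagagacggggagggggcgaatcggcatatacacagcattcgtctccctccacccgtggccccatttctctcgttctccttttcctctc
mir-53: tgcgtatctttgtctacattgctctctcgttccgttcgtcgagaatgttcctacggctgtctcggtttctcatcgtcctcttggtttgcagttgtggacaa
mir-54: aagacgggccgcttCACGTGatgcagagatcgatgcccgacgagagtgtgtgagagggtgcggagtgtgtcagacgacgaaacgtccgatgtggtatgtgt

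The cluster of mir-229, mir-64, mir-65 and mir-66, in an intron of gcn-1 on the same strand, shared a summit at III:2171966, 486 bp upstream of mir-229 and 882, 1036 and 1142 bp upstream of the others. Its signal was 29.7 pooled (rank 1877), 19.8 in replicate 1 and 29.5 in replicate 2. Among the optimal peaks this was higher placed in replicate 2 (percentile 87.8) than in replicate 1 (41.5). All 4 genes also held a summit among the 2631 highest peaks of each replicate. Of the 5 genes with the seed AUGACAC, mir-63 was the one without an optimal summit. The 5′ end of gcn-1, at 20021 bp, was the nearest protein-coding start and the farthest of any summit here. The pair mir-73 and mir-74 had a summit at X:2368320, 445 and 723 bp upstream, with a signal of 26.3 pooled (rank 2265), 12.8 in replicate 1 and 10.5 in replicate 2. Of the 6 genes with the seed GGCAAGA, these were the 2 with an optimal summit. Neither mir-73 nor mir-74 held one among the highest peaks of replicate 1 or of replicate 2. The share of all microRNA genes, to set beside the counts for both seeds, was 14.6%.

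Of the 5 annotated genes listed for the bantam family, 2 held an optimal summit (40%, beside 14.6% of all microRNA genes). Counted by the seed GAGAUCA and with mir-58.1 added, it was 2 of 7. The peak of mir-80 lay at III:8865676, 309 bp upstream, with a signal of 40.6 pooled (rank 1080), 11.9 in replicate 1 and 25.3 in replicate 2. That of mir-58.1 lay at IV:3232760, 494 bp upstream in an intron of Y67D8A.2, with a signal of 32.5 pooled (rank 1624), 12.5 in replicate 1 and 17.7 in replicate 2. Both were higher placed in replicate 2, and neither gene held a summit among the highest peaks of replicate 1. The others were lower or absent: mir-58.2 and mir-58c shared a pooled candidate of rank 16525, mir-2209.1 had a summit in replicate 1 alone (rank 23295), and mir-81 and mir-82 had one in no list. The gene mir-238, on the same strand as mir-80, held a peak with its summit 178 bp upstream (III:8867603). Its pooled signal of 23.8 (rank 2584) was near the end of the optimal list, and the peak was low in both replicates, at percentiles 11.0 and 6.12.

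In the let-7 family, whose members act in larval timing, 1 of 7 genes held an optimal summit (14.3%, beside 14.6% of all microRNA genes). It was let-7 itself, at X:14747175, 1854 bp upstream of the annotated gene and 2904 bp upstream of the hairpin, because the annotated let-7 gene is longer than its hairpin. Its signal was 50.8 pooled (rank 656), 41.0 in replicate 1 and 19.8 in replicate 2. The same summit lay 128 bp from the 5′ end of the protein-coding gene C05G5.2, and with the hairpin in place of the gene let-7 did not hold it. Of the other 6 members, mir-794 had a pooled candidate (rank 11862), mir-48, mir-241 and mir-795 had a summit in replicate 1 alone, and mir-84 and mir-793 in replicate 2 alone. Both genes of the lin-4 family, the other heterochronic family, had candidates of low rank that replicate 2 did not list. Their pooled ranks were 16764 for lin-4 and 11313 for mir-237.

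The mir-35 family, which is needed in embryos, had no optimal summit at its 8 genes, beside 14.6% of all microRNA genes. All 8 had a candidate in the pooled list and in both replicate lists, with the highest at rank 9993, in mir-41. Since mir-35 to mir-41 lie in a cluster, they shared candidates: the pooled summit at II:11537583 was the highest for mir-35, mir-36, mir-37, mir-38, mir-39 and mir-40 (rank 20976, signal 5.97). The highest for mir-42, which lies apart, had rank 25843. A count of 0 in 8 genes that share peaks says little of the family beyond these ranks.

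**Figure D4:**
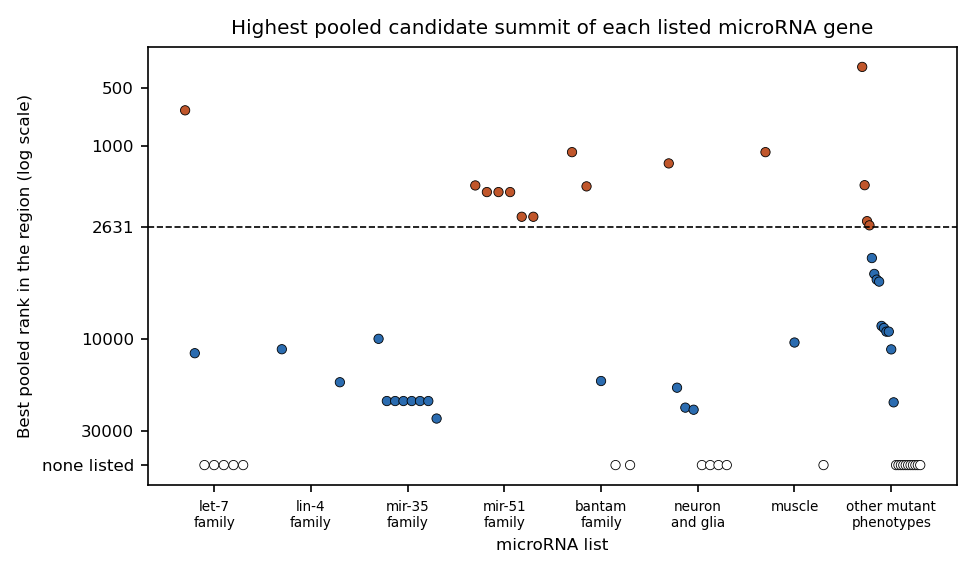
Rank in the pooled list (vertical axis, log scale, highest peaks at the top) of the best candidate summit for each gene of the 8 gene lists (horizontal axis); genes with no pooled summit are drawn at the bottom, and the line marks the last rank of the optimal list, 2631. All 6 mir-51 family genes lie above the line and all 8 mir-35 family genes below it.

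In a list of 8 microRNAs written for neurons and glia, 1 held an optimal summit, mir-79 (12.5%, beside 14.6% of all microRNA genes). It is known to act in the epidermis on genes of heparan sulfate synthesis, which guides migrating neurons. Its summit lay 316 bp upstream at a signal of 37.9 pooled (rank 1235), 11.5 in replicate 1 and 25.4 in replicate 2. As for mir-80, the peak was low among optimal peaks of replicate 1 (percentile 9.94) and high among those of replicate 2 (percentile 81.4). Neither lsy-6, which sets the asymmetry of the ASE taste neurons, nor mir-791, which acts in carbon dioxide sensing neurons, had a summit in any list. For mir-124, a microRNA of sensory neurons, both replicate lists held a summit (ranks 11320 and 7440) but the pooled list held none, and mir-228, of glia, had one in replicate 1 alone (rank 14107). The last members, mir-1820, mir-273 and mir-790, had pooled candidates of ranks 17894, 22691 and 23266, and none of them had a summit in replicate 2. In a list of 3 microRNAs written for muscle, mir-80 held an optimal summit (33.3%, beside 14.6% of all microRNA genes). The conserved muscle microRNA mir-1 had a pooled candidate of rank 10444 with signal 8.64. The third, mir-234, had a summit in replicate 2 alone (rank 18980). Whether mir-80 and mir-234 act in muscle was not examined here.

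Of 25 further microRNAs listed for mutant phenotypes, 4 held an optimal summit: mir-71, mir-34, mir-2 and mir-238 (16%, beside 14.6% of all microRNA genes). The peak of mir-71, which promotes long life and stress resistance, ranked 391 with a signal of 62.5 pooled, 43.1 in replicate 1 and 26.8 in replicate 2. Its summit lay 1818 bp upstream, in an intron of ppfr-1, which encodes a regulatory subunit of protein phosphatase 4 and is the same-strand host of both mir-71 and mir-2. The peak of mir-2, with a seed shared with Drosophila mir-2 microRNAs, ranked 2458 with a signal of 24.7 pooled, 9.15 in replicate 1 and 17.4 in replicate 2. These were separate peaks, 1818 and 1825 bp upstream of their genes. The summit of mir-34 lay at X:2971762, 1914 bp upstream and 4686 bp from the nearest protein-coding 5′ end. That peak had a signal of 32.8 pooled (rank 1601), 18.7 in replicate 1 and 14.4 in replicate 2. It was placed alike in the replicates, at percentiles 36.3 and 43.5. Of the other 21, 10 had a pooled candidate, the highest being that of mir-59 at rank 3816. Next came mir-60 (4610), mir-62 (4934), mir-86 (5053), mir-83 (8569), mir-67 (8786), mir-239.1 and mir-239.2 with a shared candidate (9171), mir-87 (11332) and mir-70 (21305). Another 5 (mir-57, mir-244, mir-247, mir-797 and mir-259) had a summit in replicate 2 alone, and 6 (mir-61, mir-85, mir-240, mir-246, mir-250 and mir-786) in no list. Of the genes in the 8 lists, 6 were mir-51 family genes with an optimal summit, some of which share a peak. The lists were written with earlier results of these data known. Over the 8 lists together, 14 of 63 different genes held an optimal summit (22.2%, beside 14.6% of all microRNA genes), and 24 of the 198 genes in no list did. That difference was not tested.

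Most of the highest peaks in microRNA regions also lay near a protein-coding 5′ end. The first, rank 11, was assigned to mir-354, which lies inside rps-20, a gene of the small ribosomal subunit. Its summit was 863 bp upstream of the microRNA and 146 bp from the 5′ end of ekl-4, with a signal of 155 pooled, 105 in replicate 1 and 64.6 in replicate 2. Similarly, mir-353 lies in rpl-24.1, a gene of the large ribosomal subunit, whose 5′ end was 241 bp from a summit of rank 117 (91.0 pooled, 54.5 and 37.0 in the replicates). The gene mir-1828 lies in pash-1, which encodes the Pasha partner of Drosha. A peak of rank 259 (71.9 pooled, 47.4 and 20.1 in the replicates) had its summit 97 bp from the 5′ end of pash-1 and 1887 bp upstream of mir-1828. For such genes a peak of the nearby protein-coding promoter and a peak of the microRNA gene cannot be told apart by position. That promoter need not be the host's, since for mir-354 the nearest start was that of ekl-4.

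Further members of that kind were mir-5549 (rank 125, 155 bp from the 5′ end of rfc-4, a DNA replication factor), mir-2216 (rank 301, 231 bp from cap-2, an actin capping protein) and mir-4932 (rank 637, 53 bp from smn-1, which acts in the assembly of splicing particles). Of these, mir-4932 was the gene without a summit in replicate 2. Lower in the list came mir-4936 (rank 787, near nduf-9, of respiratory complex I), mir-2214 (877, near spot-1), mir-8205 (1241, near W09C5.1), mir-800 (1357, near ife-2, a translation initiation factor), mir-1829.2 (1730, near F20D1.3), mir-4916 (2120, near chn-1), mir-392 (2244, near F54B11.5) and mir-4934 (2480, near mtr-4, an RNA helicase). The last of them, mir-2218.1, ranked 2512, near maea-1. The summit of mir-4934 was the one inside a microRNA gene, 30 bp from its 5′ end.

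A few summits far from protein-coding starts ranked high as well. The peak of mir-5595 ranked 24, with a signal of 133 pooled, 90.4 in replicate 1 and 37.9 in replicate 2. It was the highest optimal peak farther than 500 bp from a protein-coding 5′ end, 143 bp upstream of the microRNA, which lies inside nurf-1 on the opposite strand. That host gene encodes a chromatin remodelling subunit. The peak of mir-4929, in an intron of E01G4.3, ranked 300 with a signal of 68.5 pooled, 39.4 in replicate 1 and 38.6 in replicate 2, at 302 bp upstream. The peak of mir-2215 lay between genes, 1617 bp upstream, and ranked 1068 (40.8 pooled, 16.2 and 21.8 in the replicates). Just inside the limit of the optimal list were mir-4934, mir-2218.1 and mir-238, with pooled signals of 24.5, 24.3 and 23.8, and just outside were mir-1819 and mir-2212, which share a candidate of rank 2739 (22.7), and mir-8186.2 (rank 2759, 22.6).

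Peaks near protein-coding starts and peaks away from them differed in which replicate placed them higher. Of 15 such summits near protein-coding starts that both replicates held, 13 had the higher percentile in replicate 1, with medians of 82.2 in replicate 1 and 49.7 in replicate 2. Of the 15 far from them, 12 had the higher percentile in replicate 2, with medians of 13.3 and 75.3. Over all optimal peaks, 827 of 1338 peaks near starts were higher in replicate 1 (medians 61.5 and 48.2), and 734 of 1228 other peaks were higher in replicate 2 (medians 38.2 and 51.6). The direction was the same in the microRNA summits and in the whole list, and the medians lay farther apart in the microRNA summits. That difference was not tested.

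**Figure D5:**
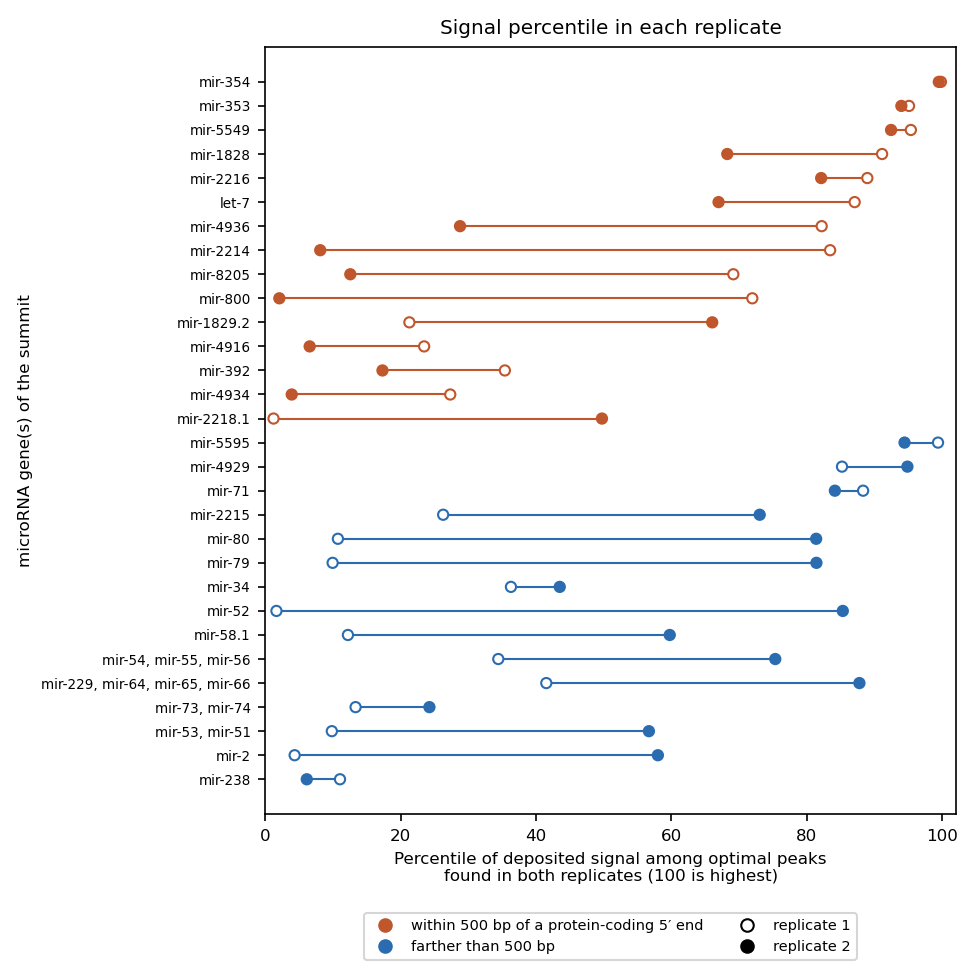
Percentile of deposited signal among optimal peaks found in both replicates (horizontal axis, 100 is the highest) for the 30 microRNA summits held by both, 1 row per summit (vertical axis), with open circles for replicate 1, filled circles for replicate 2 and a line joining them; orange marks summits near protein-coding starts and blue the others. Summits near protein-coding starts are mostly higher in replicate 1 (13 of 15) and the others mostly higher in replicate 2 (12 of 15).

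The forkhead sites TGTTTAC and TGTTTGC, searched on both strands within 50 bp of the summit, occurred at 3 of the 31 summits (9.68%, 3.35 to 24.9%). Over all optimal peaks the share was 10.6%. All 3 lay near protein-coding starts: let-7 held TGTTTAC, and mir-800 and mir-4916 held TGTTTGC. They were 3 of 16 summits of that kind (18.8%, 6.59 to 43.0%), beside 15.1% of all optimal peaks near starts, and 0 of 15 far summits, beside 5.72% of other optimal peaks. A count of 0 in 15 allows a share of up to 20%. With the highest peaks of replicate 2 alone the share was 2.94%, and with those of replicate 1 alone 15.4%. A looser pattern, TRTTKRY, in which R means A or G, K means G or T and Y means C or T, and of which both sites are instances, was held by 8 of 31 summits (25.8%), beside 29.5% of all optimal peaks. The windows of let-7 (X:14747125-14747225) and mir-800 (X:382839-382939), both on the minus strand and WBcel235, carry the site in capitals, which in let-7 reads as its reverse complement:
let-7: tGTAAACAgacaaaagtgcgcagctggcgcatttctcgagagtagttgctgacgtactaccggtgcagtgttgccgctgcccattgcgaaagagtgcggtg
mir-800: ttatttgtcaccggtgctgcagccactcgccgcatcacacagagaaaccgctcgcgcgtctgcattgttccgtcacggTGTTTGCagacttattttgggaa

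The palindrome CACGTG, chosen after the data were seen, was searched in the same windows. It occurred at 5 of the 31 summits (16.1%, 7.09 to 32.6%), beside 7.98% of all optimal peaks, which that interval contains. All 5 were among the 15 far summits (33.3%, 15.2 to 58.3%), beside 10.8% of other optimal peaks, and none was among the 16 near starts, beside 5.39% of all optimal peaks near starts. A count of 0 in 16 allows a share of up to 18.8%. Its genes were mir-5595, mir-4929, mir-79, mir-58.1 and the cluster of mir-54, mir-55 and mir-56. Other motifs, also not planned, were searched on both strands. GAGAGA was at 9 summits (29.0%, 16.1 to 46.6%, beside 23.3% of all optimal peaks). TGATAA was at 1 (3.23%, 0.572 to 16.2%, beside 6.35%). Each of these intervals contains the share of all optimal peaks. Windows of 3 further summits show CACGTG in capitals, on the strand of the microRNA gene: mir-5595 at II:14399722-14399822 (minus strand), mir-4929 at II:13462116-13462216 (minus strand) and mir-58.1 at IV:3232710-3232810 (plus strand), all WBcel235:
mir-5595: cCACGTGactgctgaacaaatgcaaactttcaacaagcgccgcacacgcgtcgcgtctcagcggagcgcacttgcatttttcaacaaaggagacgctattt
mir-4929: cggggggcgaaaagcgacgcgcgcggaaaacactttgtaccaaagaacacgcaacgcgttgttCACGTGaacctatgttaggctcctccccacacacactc
mir-58.1: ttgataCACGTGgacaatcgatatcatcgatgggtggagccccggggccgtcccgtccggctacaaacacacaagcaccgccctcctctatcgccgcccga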

How the data were processed

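Peak lists from ChIP-seq of 2 biological replicates were used as the authors deposited them on ce11, which is WBcel235. The deposited files hold a signal value per peak and a q-value on a −log10 scale. The q-value was the same for all optimal peaks and was not used. The authors' notes say that optimal peaks were chosen from pooled peaks with the help of both replicate lists. For the aligner and peak caller, names and versions were not given in the sources used here. The depth is unknown.

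Summits were the peak start plus the deposited offset. Gene models came from Ensembl release 115, gene symbols from RefSeq for 261 of 261 microRNA genes by WormBase identifier, and sequences from the RefSeq genome of the same assembly. Wilson intervals are at 95%. Motifs were searched within 50 bp of summits. Where a replicate was used alone, its 2631 highest peaks were taken. No test was run, since there is 1 group. Scripts were tested on simulated data, with Python 3.11.15, pandas 2.3.3, numpy 2.4.6, scipy 1.17.1 and matplotlib 3.10.9.

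The members and gene lists were chosen with earlier results of these data known. Named genes were the 30 with the highest pooled signal among those with an optimal summit, plus all members of 8 lists. Genes outside that rule were named after their values were seen: mir-63, mir-73, mir-74, mir-58c, mir-2209.1, mir-4934, mir-2218.1, those just outside the optimal limit (mir-1819, mir-2212 and mir-8186.2) and, in the closing section, those high in a replicate alone. The bantam list was written with 7 names, of which 5 are annotated genes. Alternatives changed the region, the peaks, the genes counted and the motif window. The mature sequence of 1 gene of the gcn-1 cluster is not reported here.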

Additional observations from a re-analysis of the deposited data

How the results depend on the processing

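The 38 microRNA genes with an optimal summit became 22 with 1000 bp upstream, 17 with 500 bp and 61 with 5000 bp. They became 16 with the upper 50% of the optimal list, 20 with peaks high in both replicates, 22 without promoter summits and 17 without genes inside protein-coding genes. Each of these takes in fewer or more regions or peaks by construction. With 1 replicate alone the count was 30 to 35. The ratio of the microRNA share to the protein-coding share, 1.08, became 0.754 with 500 bp upstream and 0.753 with the upper 50%. Without promoter summits it became 3.36 (8.43% against 2.51%), because protein-coding windows then lose the summits at their own starts. With 1 replicate alone it was 0.832 to 1.15. It was also below 1 with 1000 bp upstream (0.804), genes inside protein-coding genes left out (0.815), peaks high in both replicates (0.904) and whole protein-coding genes (0.933). It was above 1 with 5000 bp upstream (1.18), 2000 bp on both sides (1.15) and peaks counted by 1 bp of overlap (1.05). The same held for the hairpin in place of the gene (1.05) and summits near small RNA genes left out (1.12). With overlapping regions counted once it was 1.00, from 30 of 222 regions (13.5%). Whether microRNA genes stood above or below protein-coding windows thus depended on the setting. The share of summits with TGTTTAC or TGTTTGC, 9.68%, became 3.23% within 25 bp and 25.8% with TRTTKRY, and was 2.94 to 15.4% with 1 replicate alone. The hairpin in place of the gene (37 genes) and summits near small RNA genes left out (38 genes) were chosen after seeing the data. No paired analysis was possible because there is 1 group and no test. Regions that share a summit are not independent, read depth is unknown, and a peak within 500 bp of a protein-coding start cannot be assigned to the microRNA gene by position.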

Other observations

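Some microRNA genes outside the optimal list held a summit among the 2631 highest peaks of a replicate. In both replicates this was mir-235. In replicate 1 alone it was also the case for mir-2213 and mir-59, and in replicate 2 alone for mir-8209, mir-8190, mir-8186.2, mir-90, mir-243 and mir-8210. Their pooled peaks lay below the optimal limit, at rank 3360 for mir-235, 3200 for mir-2213 and 3816 for mir-59. The 10 listed genes without a summit in any list were lsy-6, mir-61, mir-81, mir-82, mir-85, mir-240, mir-246, mir-250, mir-786 and mir-791.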
